A study of Mus musculus with 12 samples.

Results

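The proteins that hold back the cyclin-dependent kinases (CDKs), and the genes read as signs of cell cycle exit and senescence, were followed through 12 mouse lung carcinoma tumors from 4 treatment arms. The set comprised 10 genes, listed by name with no value in the rule, though with earlier results of these data known. They were the CIP/KIP inhibitors Cdkn1a, Cdkn1b and Cdkn1c, the INK4 inhibitors Cdkn2a, Cdkn2b, Cdkn2c and Cdkn2d, and Trp53, Mdm2 and Lmnb1. All 10 were listed once each among the 34678 gene symbols of the tables, and 9 of the 10 passed the filter on low values. Cdkn2a, read at 0 in 4 tumors, did not. None of the 9 tested members passed the adjusted threshold in any of 5 comparisons, where 0% to 0.313% of all genes did. The largest differences were those of Cdkn1b, whose mean was below that of vehicle in every treated arm, while the lowest unadjusted p was that of Cdkn2c in the palbociclib effect. Cdkn2a, Cdkn2b and Cdkn1c were near the limit of detection in every arm.

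Bulk RNA was sequenced from LLC1-shLkb1 tumors grown in C57BL/6 mice, 5 to 8 weeks old. LLC1-shLkb1 is a Lewis lung carcinoma line in which a short hairpin RNA knocks down Lkb1 (Stk11). The paper's methods describe subcutaneous and left-chest tumors of LLC1 cells and do not say which were sequenced. The 4 arms, each with 3 tumors, were vehicle (control immunoglobulin G), palbociclib (a CDK4 and CDK6 inhibitor, 100 mg/kg by mouth on 3 days of each 7-day cycle), anti-PD-1 (an antibody to an inhibitory T cell receptor, 200 µg per mouse into the peritoneum on 3 days of each cycle) and the combination of both. Tumors were collected after 2 weeks. All 12 tumors came from the same knockdown line, so no arm holds unmodified tumor cells, and Stk11, read at 7.90 to 11.5 FPKM from tumor and host cells together, cannot check the knockdown here. Values are FPKM, that is, mapped fragments scaled by gene length and library size, so that levels can be compared between genes. Depth was estimated at 14900000 to 20300000 fragments per tumor. The labels call the tissue a lung adenocarcinoma. A list of 11 genes for lung epithelium and epithelial tumors also held Vim, a gene of mesenchymal cells. Of this list, Sftpc, Sftpa1, Nkx2-1 and Scgb1a1 were at 0 in all 12 tumors. Vim averaged 347 FPKM, Krt8 124 (62.0 to 276) and Krt18 1.04, while Sftpb, Epcam, Cdh1 and Krt19 averaged 0.0128 to 0.410. Vehicle replicate 2 stood apart. It was the highest of the 12 tumors for 18.4% of the 15350 genes tested and the lowest for 20.8%, where no other tumor exceeded 13.4% and 15.1%, and the members' differences are given with and without it where it moved them. In bulk RNA, fewer cells of a type and less RNA per cell cannot be told apart.

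INK4 proteins bind CDK4 and CDK6 and keep D-type cyclins from activating them. Palbociclib is a small molecule that inhibits the same kinases. CIP/KIP proteins bind cyclin-CDK complexes more broadly and stop CDK2. p53, kept low by the ubiquitin ligase MDM2, switches on Cdkn1a and Mdm2 after damage, while loss of lamin B1 and rise of Cdkn2a and Cdkn1a are commonly read as marks of senescence.

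Ordered by mean FPKM over the 12 tumors, Lmnb1 was highest at 38.6 ± 5.44 (SD, n = 12), followed by Cdkn2d at 30.0 ± 5.66, Trp53 at 23.5 ± 3.14, Cdkn2c at 17.6 ± 4.61 and Cdkn1a at 15.4 ± 2.95. Cdkn1b at 8.56 ± 3.74 and Mdm2 at 8.13 ± 1.63 came next, and their order held in 7 of 12 tumors only. The order of Lmnb1 over Cdkn2d held in 11 of 12 tumors, of Cdkn2d over Trp53 in 10, of Trp53 over Cdkn2c in 9 and of Cdkn2c over Cdkn1a in 8. Cdkn1a exceeded Cdkn1b in all 12. Far below lay Cdkn2b at 0.182 ± 0.136, Cdkn1c at 0.166 ± 0.170 and Cdkn2a at 0.0797 ± 0.0706, of which the first pair did not differ beyond the spread. The 4 INK4 genes were therefore very unequal. Cdkn2d made up a median of 63.5% of their summed FPKM in a tumor and Cdkn2c 36.2%, against 0.382% for Cdkn2b and 0.190% for Cdkn2a. Among the CIP/KIP genes the median shares were 65.8% for Cdkn1a, 34.1% for Cdkn1b and 0.352% for Cdkn1c.

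**Figure D1:**
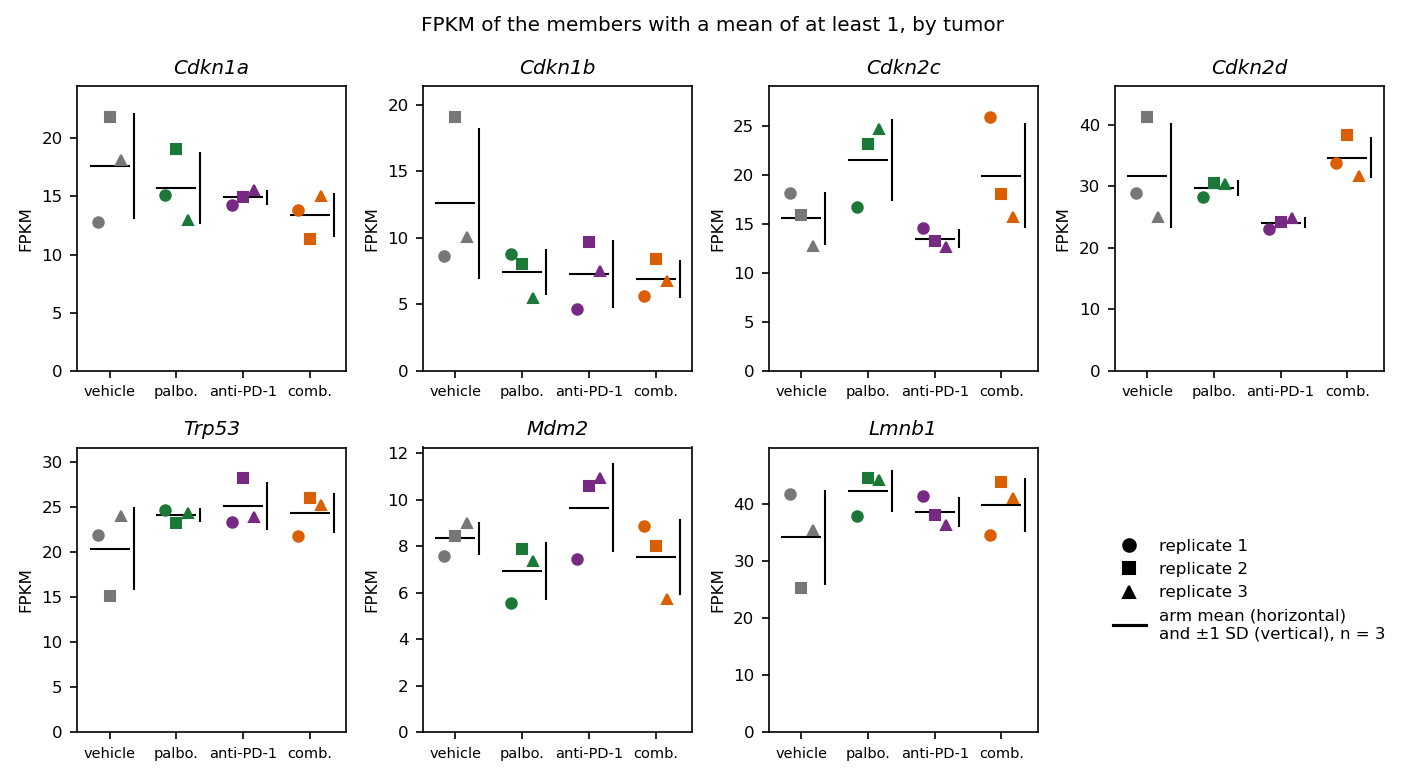
FPKM (vertical axes, from 0) of the 7 members with a mean of at least 1 in each of the 4 arms. Symbols are tumors, horizontal lines arm means and vertical lines 1 SD (n = 3); Cdkn2d was tightly grouped in the anti-PD-1 arm (23.1 to 24.8) below the combination arm (31.8 to 38.3), and vehicle replicate 2 stood at 19.1 for Cdkn1b.

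Cdkn2a, which encodes p16 and, from an alternative first exon, p19ARF, and its neighbour Cdkn2b, which encodes p15, lie together on chromosome 4 of GRCm38 (Cdkn2a at 89274471 to 89294653 and Cdkn2b at 89306299 to 89311039, both on the minus strand, GENCODE M21). The sequence just before each start of transcription is shown because almost no RNA was measured from it. The bases are from RefSeq on GRCm38.p6, minus strand, 5′ to 3′, cut where an annotated exon begins, with matches to 2 searched kinds of motif in capitals.
Cdkn2a, before the p19ARF first exon, chr4:89294654-89294869: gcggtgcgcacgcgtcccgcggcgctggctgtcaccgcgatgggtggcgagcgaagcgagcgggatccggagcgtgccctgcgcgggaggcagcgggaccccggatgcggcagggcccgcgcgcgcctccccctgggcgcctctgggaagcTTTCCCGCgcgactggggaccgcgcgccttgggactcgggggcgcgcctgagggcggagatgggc
Cdkn2a, before the p16 first exon, chr4:89282193-89282442: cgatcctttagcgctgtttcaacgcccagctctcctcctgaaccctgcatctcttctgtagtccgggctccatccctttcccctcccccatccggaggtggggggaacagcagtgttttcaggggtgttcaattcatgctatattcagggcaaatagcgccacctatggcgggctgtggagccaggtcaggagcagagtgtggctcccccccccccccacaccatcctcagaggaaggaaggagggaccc
Cdkn2b, before its start, chr4:89311040-89311282: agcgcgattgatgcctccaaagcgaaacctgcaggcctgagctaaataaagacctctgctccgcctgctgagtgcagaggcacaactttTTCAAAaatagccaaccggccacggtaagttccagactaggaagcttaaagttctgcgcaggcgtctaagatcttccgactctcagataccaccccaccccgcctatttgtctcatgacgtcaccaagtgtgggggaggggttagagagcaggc
The capitals in the first are the E2F core TTTCCCGC, and those in the third are TTCAAA, the reverse complement of TTTGAA (the core of the cell cycle homology region). TTTGAA and the E2F cores TTTCCCGC, TTTGGCGC, TTTCGCGC and TTTGCCGC were searched on both strands in windows from 250 bases before to 50 after each start. Of 32851 such windows in the table, 17.9% held the first and 2.26% any E2F core, so these matches are descriptions and not sites. The table matched 8 members with 11 windows (Lmnb1 and Cdkn1c have no entry), and the other 9 windows held neither motif. The p19ARF window had 77.0% G and C and 45 CpG, the p16 window 60.3% and 12, and the Cdkn2b window 57.7% and 18, against medians of 52.7% and 7 over all windows.

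Cdkn2a FPKM was 0.138, 0 and 0.0701 in the 3 vehicle tumors. It was 0.0877, 0 and 0.215 under palbociclib. Under anti-PD-1 it was 0.149, 0 and 0.0768, and under the combination 0.133, 0 and 0.0878. All arms overlapped, and replicate 2 of each arm was at 0. The smallest steps between low FPKM values give the number of fragments behind them. For Cdkn2a this was an estimated 23 fragments over all 12 tumors and at most 5 in any tumor. By arm they were 5 in vehicle, 7 under palbociclib, 6 under anti-PD-1 and 5 under the combination, and the exact Poisson intervals (95%, counting error only) ran from 1.62 to 11.7 for the lowest and from 2.81 to 14.4 for the highest. No difference in Cdkn2a was detectable at this depth. In the tumors at 0, a count of 0 allows up to 3 fragments, or 0.124 to 0.144 FPKM. A value for the gene as a whole cannot separate p16 from p19ARF.

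Cdkn2b was as scarce. FPKM was 0.278, 0.0465 and 0.142 in vehicle, 0.0443, 0.386 and 0.217 under palbociclib, 0.113, 0.132 and 0.155 under anti-PD-1 and 0.448, 0 and 0.221 under the combination. Both the highest and the lowest tumor belonged to the combination arm, and all arms overlapped. These values rest on 50 fragments in all, 0 to 10 per tumor. The palbociclib effect, which is the mean of palbociclib minus vehicle and combination minus anti-PD-1 and so uses all 12 tumors, was 0.20 on the log2(FPKM + 0.1) scale (95% interval -0.78 to 1.18, limma adjusted p = 0.820), and 0.03 without vehicle replicate 2.

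The genes around them were read for comparison. Of the 23 protein-coding genes within 500000 bases on either side of Cdkn2a, 1 averaged at least 1 FPKM. This was Mtap, the methylthioadenosine phosphorylase gene, which is separated from Cdkn2a by 93390 bases and stood at 74.9 on average (53.2 to 88.1). Most of the others are interferon genes. Dmrta1, on the far side of Cdkn2b, had 8 fragments over all tumors.

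**Figure D2:**
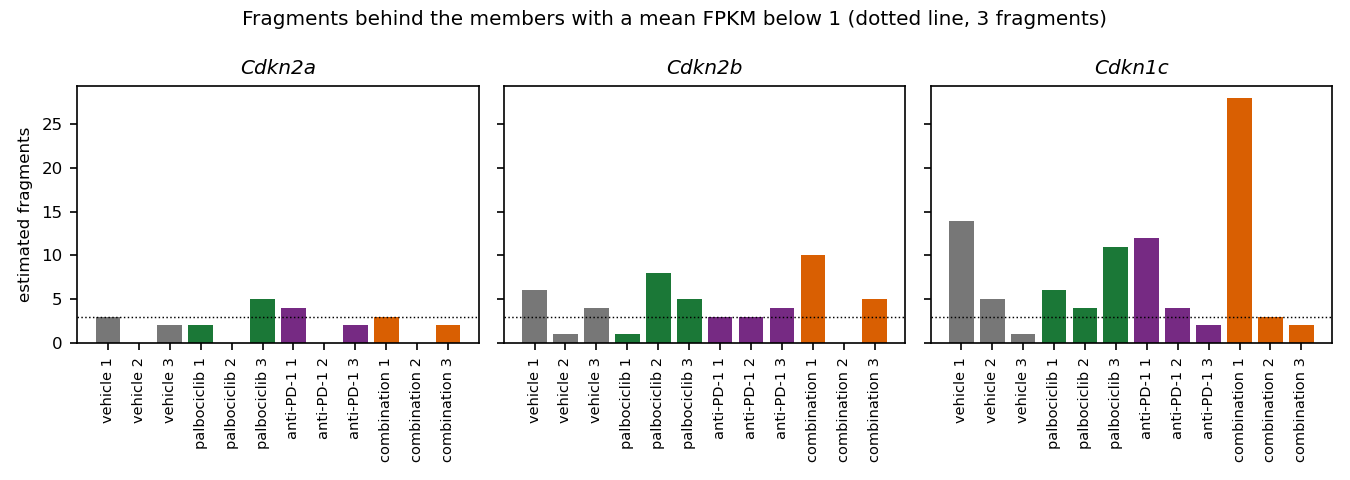
Estimated fragments (vertical axis, from 0) behind Cdkn2a, Cdkn2b and Cdkn1c in each of the 12 tumors, coloured by arm, with a dotted line at 3. Cdkn2a had 0 to 5 per tumor, Cdkn2b 0 to 10, and Cdkn1c 28 in combination replicate 1.

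Cdkn2c, the gene of p18 on the same chromosome (109660876 to 109667189, minus strand), had the strongest palbociclib effect of the members. FPKM was 18.1, 15.9 and 12.7 in vehicle and 16.7, 23.2 and 24.6 with palbociclib, against 14.6, 13.3 and 12.6 with anti-PD-1 and 25.9, 18.0 and 15.7 with the combination. The 3 combination tumors were all above the 3 anti-PD-1 tumors, a separation seen in 18.8% of the 15350 genes tested, while palbociclib and vehicle overlapped through 1 tumor on each side. Arm means were 15.6 ± 2.71, 21.5 ± 4.20, 13.5 ± 0.989 and 19.9 ± 5.35 (SD, n = 3) in the same order. The palbociclib effect was 0.49 on the log2 scale (95% interval 0.18 to 0.81), a 1.41-fold higher level (1.13 to 1.75). It did not pass adjustment over all genes (limma, adjusted p = 0.116, unadjusted p = 0.00538). The exact permutation test of this gene alone, with 400 relabelings that kept the tumors given anti-PD-1 apart from the rest, gave p = 0.015 (two-sided, smallest possible 0.005). All 10 members were tested in this way. This p was the lowest, with Mdm2 next at 0.065, and was not corrected for the number of members. The effect with anti-PD-1 differed from that without by 0.07 on the log2 scale (interval -0.56 to 0.70), which leaves a difference of either sign possible.

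The 3 genes most like Cdkn2c over 12 tumors on log2(FPKM + 0.1), among 11186 genes averaging at least 1 FPKM, were Ear2, a ribonuclease of eosinophils and macrophages (r = 0.948), Ighm, the IgM heavy chain (r = 0.938), and Fcgrt, the neonatal Fc receptor (r = 0.929). These are descriptions over tumors that share arms, and leaving out vehicle replicate 2 gave 0.948, 0.952 and 0.935. The summed FPKM of 10 leukocyte markers, of which 7 had a mean of at least 1, ran from 50.4 to 95.2 in vehicle and from 92.5 to 131 with palbociclib, and from 46.9 to 108 with anti-PD-1 and 58.0 to 117 with the combination. This sum did not follow Cdkn2c in every tumor. It was 108 in anti-PD-1 replicate 1 and 111 in combination replicate 3, where Cdkn2c was 14.6 and 15.7. Its largest parts were Cd68 and Adgre1, at 50.6 and 22.3 FPKM on average. Ptprc, another of its markers, had arm means in the same order as Cdkn2c: 2.76 (palbociclib), 2.31 (combination), 1.83 (vehicle) and 1.32 (anti-PD-1). By tumor, Ptprc was 1.35 in anti-PD-1 replicate 1 and 2.89 in combination replicate 3. It was 0.841 in combination replicate 2, where Cdkn2c was 18.0. The sum of 7 adipose markers was 1.24 to 4.45 in vehicle, 16.4 to 404 with palbociclib, 0.884 to 4.75 with anti-PD-1 and 1.29 to 989 with the combination. The value of 989 was in combination replicate 1, the tumor with the highest Cdkn2c. Palbociclib replicate 1, at 404, had the lowest Cdkn2c of its arm. The part of leukocytes or of adipose tissue in the Cdkn2c result was not tested.

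Cdkn2d, the gene of the p19 member of the INK4 family (chromosome 9, 21288410 to 21291407, minus strand; a different protein from p19ARF), was the highest inhibitor in every arm. FPKM was 28.9, 41.3 and 25.0 in vehicle, 28.3, 30.5 and 30.4 under palbociclib, 23.1, 24.2 and 24.8 under anti-PD-1 and 33.8, 38.3 and 31.8 under the combination. The anti-PD-1 tumors lay below all vehicle tumors, whereas the combination tumors lay above all palbociclib tumors and all anti-PD-1 tumors. Separations of these kinds were seen in 11.3%, 13.7% and 18.8% of the genes tested, and the first pair in opposite directions in 0.749%. Arm means were 31.7 ± 8.53, 29.7 ± 1.26, 24.0 ± 0.882 and 34.6 ± 3.34 (SD, n = 3).

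Anti-PD-1 effects on Cdkn2d with and without palbociclib were compared by the interaction, which was fitted for every gene tested. This interaction was 0.58 on the log2 scale (95% interval 0.10 to 1.06), with unadjusted p = 0.0221 and adjusted p = 0.866 in limma, where 5.73% of genes had an unadjusted p under 0.05. Without vehicle replicate 2, which was the highest tumor for this gene, the interaction was 0.37 (limma, adjusted p = 0.898). Anti-PD-1 against vehicle was -0.37 (interval -0.71 to -0.03, adjusted p = 0.581), and -0.16 without that tumor. The palbociclib effect was 0.23 (interval -0.01 to 0.47, adjusted p = 0.261), and 0.33 without it (adjusted p = 0.102). The 3 genes most like Cdkn2d over the 12 tumors were Rgs12 (r = 0.943), Chrna1os (r = 0.915) and Mospd1 (r = 0.903).

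Among the CIP/KIP genes, Cdkn1a encodes p21, the best known target of p53 (chromosome 17, 29090976 to 29100727, plus strand). FPKM was 12.8, 21.9 and 18.1 in vehicle, 15.1, 19.1 and 13.0 under palbociclib, 14.3, 14.9 and 15.6 under anti-PD-1 and 13.8, 11.3 and 15.1 under the combination. Vehicle spanned nearly the whole range, and every other arm overlapped it. For Cdkn1a the palbociclib effect was -0.15 on the log2 scale (95% interval -0.46 to 0.15, limma adjusted p = 0.541), so that a fold above 1.11 or below 0.729 lay outside the interval. The combination against vehicle was -0.37 (interval -0.79 to 0.06, adjusted p = 0.350). Single tumors moved both. Without vehicle replicate 2 they were -0.07 (adjusted p = 0.807) and -0.19 (0.723), and without vehicle replicate 1 they were -0.26 (0.176) and -0.58 (0.0963). The genes most like Cdkn1a were Kdm3b (r = 0.905), the RNA-decay factor Zfp36 (r = 0.901) and Malt1 (r = 0.892), each with its highest value in vehicle replicate 2.

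Cdkn1b encodes p27, a CDK2 inhibitor held mainly by protein turnover (chromosome 6, 134920401 to 134925513, plus strand). FPKM was 8.61, 19.1 and 10.1 in vehicle, 8.78, 8.03 and 5.49 under palbociclib, 4.62, 9.69 and 7.52 under anti-PD-1 and 5.61, 8.43 and 6.75 under the combination. All combination tumors lay below all vehicle tumors, as in 22.5% of the genes tested in either direction, and the other treated arms overlapped vehicle. Vehicle had the highest mean, 12.6 ± 5.70, against 7.43 ± 1.73, 7.28 ± 2.54 and 6.93 ± 1.42 in the treated arms (SD, n = 3). On the log2 scale, palbociclib differed from vehicle by -0.69 (limma adjusted p = 0.377), anti-PD-1 by -0.76 (0.583) and the combination by -0.79 (0.275), and these 3 comparisons share the vehicle tumors. Single tumors weighed on them. Without vehicle replicate 2 palbociclib differed by -0.35, anti-PD-1 by -0.42 and the combination by -0.44, and the palbociclib effect went from -0.36 (interval -0.87 to 0.15, adjusted p = 0.396) to -0.19 (adjusted p = 0.641). Without anti-PD-1 replicate 1 the anti-PD-1 difference was -0.47 (limma, adjusted p = 0.932). Smg6 (r = 0.972), Pitpnm1 (r = 0.960) and Wipi1 (r = 0.958) were most like Cdkn1b, and all 3 were highest in vehicle replicate 2.

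Cdkn1c, the imprinted gene of p57 (chromosome 7, 143458339 to 143461050, minus strand), had 92 fragments over all tumors. FPKM was 0.321, 0.115 and 0.0175 in vehicle, 0.131, 0.0956 and 0.236 under palbociclib, 0.223, 0.0871 and 0.0384 under anti-PD-1 and 0.621, 0.0621 and 0.0438 under the combination. All arms overlapped, and combination replicate 1, the tumor with the highest adipose marker sum, held 28 of the fragments. The part of adipose tissue in this value was not tested. In limma the palbociclib effect was 0.25 (interval -0.76 to 1.27, limma adjusted p = 0.776), and -0.12 without that tumor.

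Trp53, the gene of p53 (chromosome 11, 69580359 to 69591873, plus strand), was at 21.9, 15.2 and 24.0 FPKM in vehicle, 24.7, 23.2 and 24.3 under palbociclib, 23.3, 28.2 and 23.9 under anti-PD-1 and 21.8, 26.0 and 25.1 under the combination. Apart from vehicle replicate 2 the tumors lay close together, and all arms overlapped. The palbociclib effect was 0.11 on the log2 scale (95% interval -0.13 to 0.35, limma adjusted p = 0.578) and 0.01 without that tumor. Its nearest genes were Wdr74 (r = 0.962), Rcc2 (r = 0.953) and G3bp1 (r = 0.951), all lowest in vehicle replicate 2.

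Mdm2, which encodes the ligase that degrades p53 and is itself a p53 target (chromosome 10, 117688875 to 117710758, minus strand), was at 7.59, 8.46 and 9.0 FPKM in vehicle, 5.56, 7.90 and 7.38 under palbociclib, 7.47, 10.6 and 10.9 under anti-PD-1 and 8.90, 8.0 and 5.72 under the combination. The lowest pair of tumors were both given palbociclib and the highest pair both anti-PD-1 alone, although all arms overlapped. The palbociclib effect was -0.32 on the log2 scale (95% interval -0.63 to -0.01), a 0.803-fold level (limma, unadjusted p = 0.0461, adjusted p = 0.236), and the exact permutation p was 0.065. The genes most like Mdm2 were Oaz2-ps (r = 0.817), Cnih1 (r = 0.813) and Rhox2d (r = 0.803).

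Lmnb1, the gene of lamin B1 in the nuclear lamina (chromosome 18, 56707813 to 56753424, plus strand), was at 41.7, 25.2 and 35.4 FPKM in vehicle, 37.9, 44.5 and 44.1 under palbociclib, 41.3, 38.0 and 36.2 under anti-PD-1 and 34.5, 43.8 and 40.9 under the combination. The lowest value of all was in vehicle, and all arms overlapped. With all tumors the palbociclib effect was 0.19 on the log2 scale (95% interval -0.07 to 0.44, limma adjusted p = 0.381), a 1.14-fold level with an interval of 0.952 to 1.36, so that a fold below 0.952 lay outside it. Without vehicle replicate 2 it was 0.09 (adjusted p = 0.618). BC017643 (r = 0.963), Ppif (r = 0.956) and Kti12 (r = 0.955) were most like it.

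**Figure D3:**
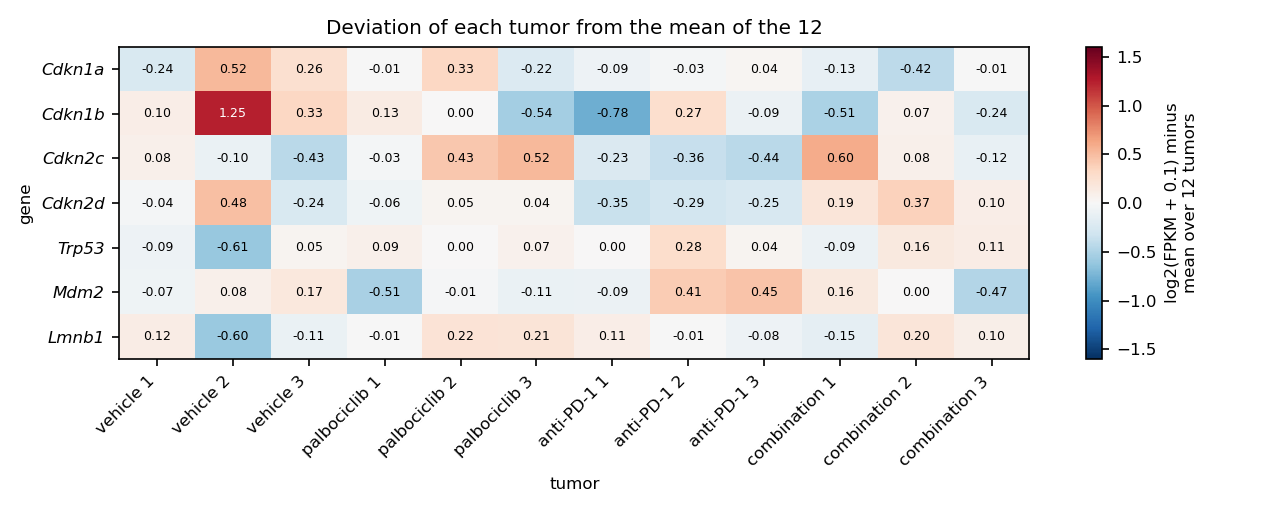
Deviation of each tumor (columns) from the mean of the 12 tumors on the log2(FPKM + 0.1) scale for the 7 members averaging at least 1 FPKM (rows); red is higher and blue lower, with the value in each cell. The column of vehicle replicate 2 holds 0.52 for Cdkn1a, 1.25 for Cdkn1b, 0.48 for Cdkn2d, -0.61 for Trp53 and -0.60 for Lmnb1.

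Much of what these genes shared across tumors ran through vehicle replicate 2. It was the highest of the 12 tumors for Cdkn1a, Cdkn1b and Cdkn2d and the lowest for Trp53 and Lmnb1, 5 of the 7 members that averaged at least 1 FPKM. Trp53 and Lmnb1 correlated at r = 0.76 over 12 tumors and 0.11 without it, and Cdkn1a and Cdkn1b at 0.62 and 0.28. Not every pair weakened without this tumor. Cdkn2c and Cdkn2d correlated at 0.50 over 12 tumors and 0.68 without it, and Cdkn1b and Cdkn2c at -0.34 and -0.41. These are descriptions, and what set this tumor apart was not tested.

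Set against all genes, the members did not stand out by the number called. For the palbociclib effect 0 of 9 passed an adjusted p under 0.05, where 0.313% of the 15350 genes did, and 2 of 9 (Cdkn2c and Mdm2, in opposite directions) had an unadjusted p under 0.05, where 20.5% did. Palbociclib against vehicle gave 0 of 9 (0.143% of all genes) and 1 at the unadjusted level, Cdkn2c (13.8%), and no member separated these 2 arms (19.3% of all genes). Anti-PD-1 against vehicle gave 0 of 9 (0% of all genes) and 2 at the unadjusted level, Cdkn1b and Cdkn2d, both lower (8.4%). The combination against vehicle gave 0 of 9 (0.013%) and 1, Cdkn1b (17%). The interaction gave 0 of 9 (0%) and 1, Cdkn2d (5.73%). All of these are limma counts. The median difference of the members in the palbociclib effect was 0.19 on the log2 scale, against 0.06 over all genes. For no member did the 6 palbociclib-treated tumors separate from the other 6, as they did for 1.43% of all genes.

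**Figure D4:**
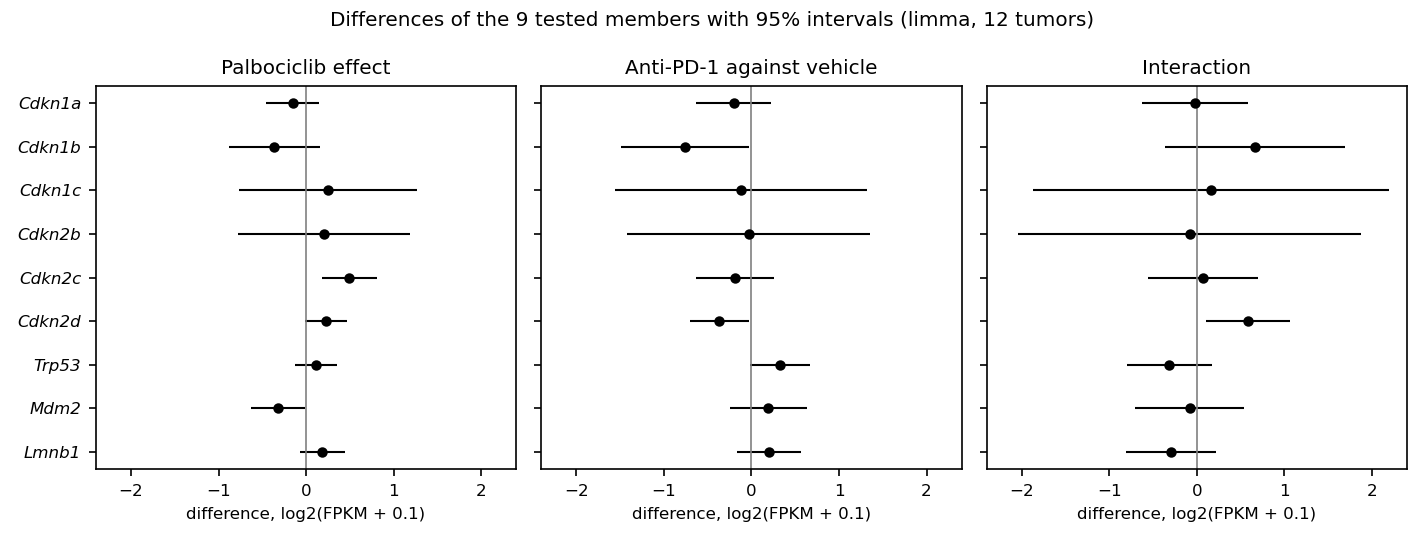
Differences on the log2(FPKM + 0.1) scale (horizontal axes) with 95% intervals from limma for the 9 tested members, in the palbociclib effect, anti-PD-1 against vehicle and the interaction. The palbociclib interval lay above 0 for Cdkn2c (0.18 to 0.81) and below 0 for Mdm2 (-0.63 to -0.01), and the intervals of Cdkn1c and Cdkn2b were the widest.

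No listed target of p53 was called in the palbociclib effect with all 12 tumors. Of 27 listed p53 targets, 15 were higher and 12 lower in the palbociclib effect, with 0 called, 1 higher and 3 lower at an unadjusted p under 0.05 (14.1% and 6.44% of all genes), and a median of 0.03. Plk3, a polo-like kinase, averaged 15.2 ± 4.13 FPKM in vehicle and 15.0 ± 1.02 with anti-PD-1, against 9.80 ± 0.654 with palbociclib and 9.78 ± 1.80 with the combination (SD, n = 3), a difference of -0.61 (limma adjusted p = 0.0696). Eda2r, a death receptor of the TNF receptor family, differed by 0.39 (adjusted p = 0.259). Perp, which serves p53-dependent death and also the desmosomes of skin, differed by 1.86 (adjusted p = 0.323) through palbociclib replicate 2 at 26.1 FPKM, when no tumor of the vehicle arm exceeded 0.0679. That tumor had a sum of 382 over 7 skin markers, against 1.18 or less in the other 11 tumors, and the part of skin in the value was not tested. Of 9 tested p53 regulators, 4 were higher and 5 lower with 0 called (0.313% of all genes). The largest effects were those of the checkpoint kinase gene Chek2 (0.42, adjusted p = 0.135), the ubiquitin ligase gene Rchy1 (0.30, 0.315) and Chek1 (0.25, 0.244).

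Regulators of the inhibitors were also mixed. Of 11 tested regulators of the CIP/KIP proteins, 6 were higher and 5 lower with 0 called (0.313% of all genes). The p21 activator Klf4 differed by 0.65 (limma adjusted p = 0.270), the p27 activator Foxo3 by -0.45 (0.290), and Pcna, the replication clamp that p21 binds, by 0.37 (0.132). Of 16 tested regulators and neighbours of the INK4 locus, 5 were higher and 11 lower, with 0 called, and 1 was higher and 4 were lower at an unadjusted p under 0.05 (14.1% and 6.44% of all genes). The largest effects included the Polycomb subunits Cbx7 (-0.45, adjusted p = 0.144) and Cbx8 (-0.35, 0.169), which repress that locus, and Dmtf1, an activator of p19ARF (-0.30, 0.0894).

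Of 23 genes of the nuclear lamina and senescence chromatin, 12 were higher and 11 lower. None was called (0.313% of all genes), and the median was 0.00. The pocket protein gene Rbl1 differed by 0.31 (limma adjusted p = 0.112), Hmgb2, a chromatin protein lost in senescence, by 0.28 (0.269) and Tmpo, which encodes the lamin-binding LAP2 proteins, by 0.22 (0.137). Of 12 lysosomal and survival genes used as senescence markers, 5 were higher and 7 lower, with 0 called (0.313% of all genes). At an unadjusted p under 0.05, 4 were higher and 3 lower (14.1% and 6.44% of all genes). B2m differed by 0.74 (adjusted p = 0.0807), the lysosomal fucosidase gene Fuca1 by 0.33 (0.112) and the survival gene Mcl1 by -0.30 (0.129).

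The senescence-associated secretory genes were, with all 12 tumors, the one list with a call. Of 46 tested, 20 were higher and 26 lower, and 4 were higher and 11 lower at an unadjusted p under 0.05 (14.1% and 6.44% of all genes). Igfbp3, which encodes a carrier of insulin-like growth factors, fell by 2.05 on the log2 scale (limma adjusted p = 0.0467), a direction called for 0.0651% of all genes. It ranged from 22.1 to 71.0 FPKM in vehicle and from 18.4 to 61.1 with anti-PD-1, against 5.88 to 10.7 with palbociclib and 6.82 to 12.8 with the combination. The 6 palbociclib-treated tumors thus lay below the other 6, a separation seen in either direction in 1.43% of all genes. The call is a marginal one. The adjusted p stayed under 0.05 when vehicle replicate 1, anti-PD-1 replicate 1 or combination replicate 2 was left out (0.0205 to 0.0316) and was 0.0657 to 0.146 without any of the other 9 tumors, with differences of -2.31 to -1.79. Calls in this list numbered 0 to 9 when single tumors were left out, with 4 without vehicle replicate 1, 9 without anti-PD-1 replicate 1 and 3 without combination replicate 2. Of the 8 lists, 5 held a call without vehicle replicate 1, 7 without anti-PD-1 replicate 1 and 2 without combination replicate 2. Over all genes these 3 fits called 695 of 15342, 772 of 15366 and 262 of 15375, against 48 of 15350 with all tumors. The sum of 6 endothelial markers was lower too, at 12.6 to 15.2 with palbociclib and 11.7 to 15.3 with the combination against 15.6 to 30.6 in vehicle and 18.2 to 32.6 with anti-PD-1, and its part was not tested.

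The cell cycle partners of the inhibitors were all higher under palbociclib, though none passed adjustment. Like the other lists, this one was drawn up with earlier results of these data known. All 25 genes, which are the CDKs, cyclins, E2F factors and replication and mitosis genes, had a positive palbociclib effect, and the median was 0.24 on the log2 scale against 0.06 over all genes. None was called, and 11 had an unadjusted p under 0.05, against 14.1% of all genes in that direction. Ccne1, the gene of the CDK2 partner cyclin E1, averaged 6.44 ± 2.34 FPKM in vehicle, 11.3 ± 0.238 under palbociclib, 8.38 ± 1.71 under anti-PD-1 and 11.5 ± 0.206 under the combination (SD, n = 3), a difference of 0.66 (limma adjusted p = 0.0828). The D-type cyclin genes Ccnd3 (0.54, adjusted p = 0.125) and Ccnd1 (0.52, 0.112) followed. Against vehicle alone, 25 of 25 were higher under palbociclib, 22 under anti-PD-1 and 24 under the combination, and the 3 comparisons share the vehicle tumors. Without vehicle replicate 2, 24 of 25 were higher in the palbociclib effect with a median of 0.21. Leaving out vehicle replicate 1 brought 6 calls and leaving out anti-PD-1 replicate 1 brought 9, and the other tumors 0. Over all genes these 2 fits called 695 of 15342 and 772 of 15366.

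**Figure D5:**
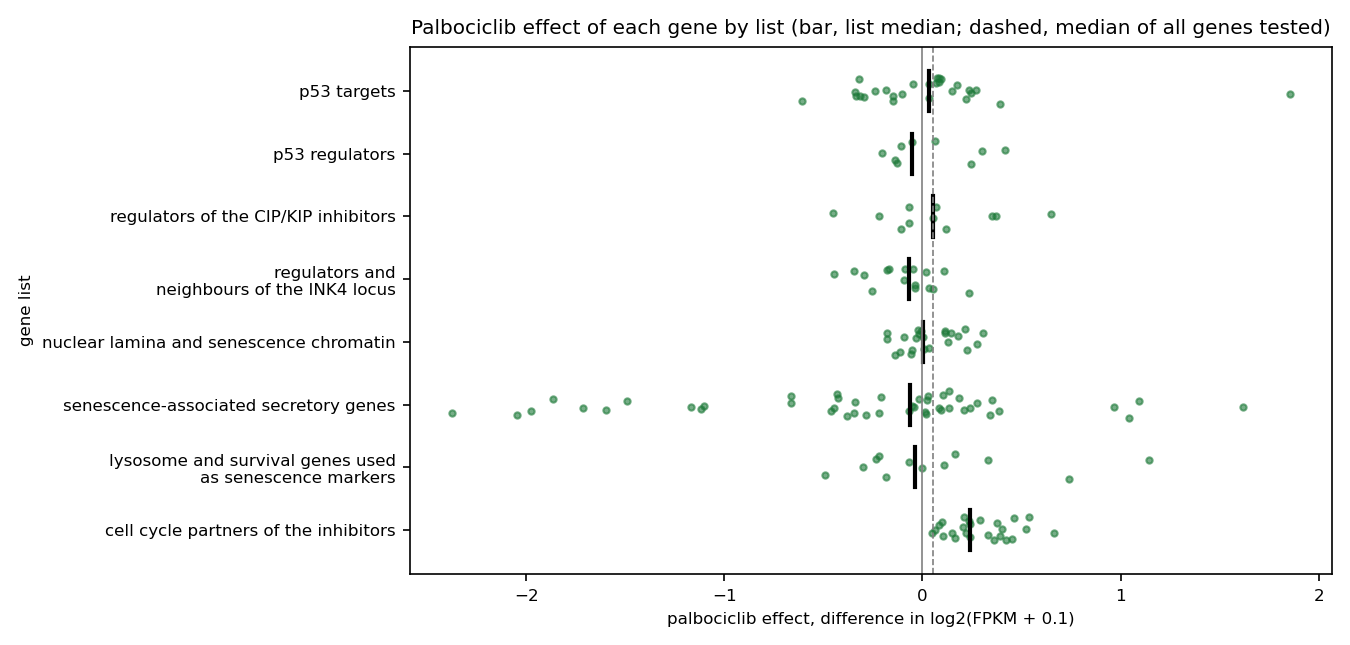
Palbociclib effect of each tested gene (points, horizontal axis, difference on the log2(FPKM + 0.1) scale) in 8 gene lists, with a bar at each list's median and a dashed line at the median of all genes tested. The cell cycle partners lie entirely above 0 (median 0.24), while the medians of the other lists lie between -0.07 and 0.05.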

How the data were processed

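Tumors were profiled by bulk RNA-seq, 3 per arm. The authors deposited 1 FPKM table per tumor with 34745 entries. HISAT2 and the builds GRCm38 and mm10 are named in the submitters' processing notes, while the counting tool and annotation are not given in the sources used here. Strand use is not stated either, so reads of overlapping antisense genes cannot be told apart. For the 67 repeated symbols the entry with the highest mean was kept, and no member was repeated. Positions came from GENCODE M21.

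A linear model with 1 mean per arm was fitted over all 12 tumors to log2(FPKM + 0.1) of the 15350 genes averaging 0.1 FPKM or more, by limma (version 3.58.1, R 4.3.3, trended eBayes), with Benjamini-Hochberg adjustment over all genes and a threshold of 0.05. A fold on this scale understates the change of low genes. Unadjusted p-values of the members are not corrected for the number of comparisons. The fit was tested on simulated data. Fragments were estimated from the steps of low FPKM values in Python 3.11.15 (pandas 2.3.3, scipy 1.17.1), where the values of Cdkn2a, Cdkn2b and Cdkn1c lay within 0.001 of whole fragments. Total depth was read off the commonest value among 4876 genes (33.8% of them), and is less firm than the ratios between tumors.

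The members and gene lists were chosen with earlier results of these data known. Besides the members, the text names from each list the genes called in the palbociclib effect or, failing these, the 3 with the largest absolute effect averaging at least 1 FPKM. Protein sequences were not used here. Alternatives were pseudocounts of 1 and 0.01, other filters, rescaling to TPM, quantile normalization, no trend, a replicate block, only the 2 arms compared and leaving out each tumor. Same-numbered vehicle and anti-PD-1 tumors deviated together at r = 0.161 to 0.523 in all 3 pairs, so the numbers were taken to pair these 2 arms, from the data and not from a label. The main fits and the exact permutation of anti-PD-1 labels did not use these pairs. In the other arm pairs 5 of 15 exceeded 0.1, none of them in all 3, and the numbers were not taken to pair the tumors.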

Additional observations from a re-analysis of the deposited data

Results flagged for a closer look

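Cdkn2d was flagged by an exact permutation test with the interaction as its statistic (two-sided p = 0.005). Anti-PD-1 labels were permuted separately with and without palbociclib. The null is no anti-PD-1 effect in either setting, so the test cannot decide whether the effects with and without palbociclib were equal. All 10 members were tested, and the same exact permutation test gave the others p = 0.255 (Trp53) to 0.97 (Cdkn2b). The exact permutation p of 0.005 is the smallest possible with 400 relabelings, and it was not corrected for the number of members. It is reached by any gene whose tumors cross as follows. All 3 anti-PD-1 tumors were below all 3 vehicle tumors, and all 3 combination tumors were above all 3 palbociclib tumors. The interaction was 0.58 on the log2(FPKM + 0.1) scale (limma, unadjusted p = 0.0221, adjusted p = 0.866) and 0.37 without vehicle replicate 2 (adjusted p = 0.898). The same crossing, in either direction, was seen in 115 of 15350 genes (0.749%).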

How the results depend on the processing

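No member passed the adjusted threshold in any of 346 refits of the 17 member results, and 14 of the 17 never changed sign. Cdkn2b in the palbociclib effect went from 0.20 to -0.0758 with a pseudocount of 0.01 and to -0.0452 with quantile normalization, and ranged from -0.0657 to 0.55 when single tumors were left out. Cdkn1c ranged from -0.12 to 0.49 in the same way, and the interaction of Cdkn2c from -0.14 to 0.22. Cdkn2c stayed between 0.39 and 0.58, with adjusted p from 0.0601 to 0.260. Counts of all genes called moved more, and the cause was not tested. The palbociclib effect (48 genes) gave 11 without a filter, 0 without a trend and 0 to 772 when single tumors were left out (0 without vehicle replicate 2, 695 without vehicle replicate 1 and 772 without anti-PD-1 replicate 1), and 79.2% of its calls were higher, against 63.6% with quantile normalization. Palbociclib against vehicle (22) gave 34 as TPM, 1 with quantile normalization, 6 without a trend, 0 with only the 2 arms and 1 to 56 leaving out tumors. Anti-PD-1 against vehicle (0) gave 1 without a filter and 0 to 1. The combination against vehicle (2) gave 5 with a pseudocount of 0.01, 1 without a trend, 0 with only the 2 arms and 0 to 5. The interaction (0) gave 1 with a pseudocount of 0.01, 2 with a filter at FPKM 1, 7 without a filter, 1 as TPM, 2 with quantile normalization and 0 to 3. Leaving out 1 tumor keeps at least 2 in its arm.

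With a replicate block the counts were 129 for the palbociclib effect, 51 for palbociclib against vehicle and 1 for the combination against vehicle, but in these comparisons the numbers are not known to pair the tumors, 6 of 12 of which correlated best with their own number. In anti-PD-1 against vehicle, where all 3 pairs deviated together, the block left 0 calls, as did a block with only the 2 arms, added after seeing the data. In that last fit the unadjusted limma p was 0.00632 for Cdkn1b and 0.0955 for Cdkn2d (adjusted p = 0.629 in both). Without a block, over all 12 tumors, the unadjusted limma p was 0.0424 and 0.0369. By number, Cdkn1b, Cdkn2c and Cdkn2d were lower with anti-PD-1 in 3 of 3 pairs. For Cdkn2d this follows from arms that do not overlap. The share of all genes with such a count was not computed, so the counts are descriptions only. The block changed no call of a member.

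Depth limits Cdkn2a, Cdkn2b and Cdkn1c, at 23, 50 and 92 fragments in all. With 3 tumors per arm, intervals of the other members in the palbociclib effect still reach from 0.545-fold (Cdkn1b) to 1.75-fold (Cdkn2c).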
